A study of Bos taurus with 4 samples.

Results

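The clones described here are those of a mouse cDNA library that carry 1 gene symbol of the mitochondrial respiratory chain or the ATP synthase. The symbols begin with Nduf, Uqcr, Cox4 to Cox8 or Atp5, or are Sdha to Sdhd, Cyc1 or Cycs. This choice used names only, and gave 173 clones of 84 genes among 35960 library clones, which carry 11835 different symbols. Complex I had 69 clones of 34 genes, complex II 7 clones of 3 genes, complex III 17 clones of 8 genes, complex IV 29 clones of 15 genes and complex V, the ATP synthase, 38 clones of 17 genes. Cytochrome c had 3 clones of 1 gene, and 10 clones came from 6 genes of complex I assembly factors (Ndufaf). Ndufa4 and its paralog Ndufa4l2 were counted with complex IV, since the Ndufa4 protein is now known as a subunit of cytochrome c oxidase. Another 10 clones with several symbols, among them those of Sdhc and Atp5g2, were left out. The study measured RNA of bovine chromaffin cells, the catecholamine-secreting cells of the adrenal medulla, on 4 arrays. Each array set cells given PACAP, a neuropeptide named for activating the adenylate cyclase of the pituitary, at 100 ng/ml for 6 h at 37 C in culture against the control cells of the same repeat. The treated RNA carried Cy5 and the control RNA carried Cy3 on every array, so dye and treatment cannot be told apart for a single clone. No label says whether the 4 biological repeats used separate animals, so p-values measure only the spread between these arrays. The tissue entry of the labels is brain, while their cell type entry is chromaffin cells.

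The respiratory chain passes electrons from NADH (through complex I) and succinate (through complex II) by way of ubiquinone to complex III, then by cytochrome c to complex IV, which reduces oxygen. Complexes I, III and IV move protons across the inner mitochondrial membrane, and the ATP synthase uses the return flow to make ATP. Chromaffin cells need ATP for loading and exocytosis of their secretory granules. Most subunits are encoded in the nucleus and made in fixed proportions, and the clones here are of nuclear genes. Of the 84 mouse symbols, 67 matched a bovine gene by symbol and 14 by a synonym, and 3 (Atp5k, Atp5pb-ps and Ndufs5-ps) matched none.

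Across the library, the median intensity per array ran from 99.9 to 402.7 in Cy5 and from 129.4 to 548.0 in Cy3. Cy5 exceeded 2 background SD in 91.9 to 98.4% of library spots, and Cy3 in 46.0 to 98.3%, lowest on repeat 3 and highest on repeat 4. Markers of chromaffin cells were measured for 7 of 10 genes, with Dbh, Pnmt and Slc18a2 not measured. Among them, Chgb, Penk and Scg2 had a positive mean log2 ratio at an unadjusted limma p under 0.05. The list had 4 means above 0 and 3 below, the latter being Chga (-0.50 ± 0.14, SD, n = 4, below 0 on every array), Ddc (-0.36) and Slc18a1 (-0.31). The library's own title for the Scg2 clone names another gene. Markers of other cells were measured for 7 of 9 genes of adrenal cortex, 6 of 7 of fibroblasts, 4 of 6 of endothelium, 5 of 5 of leukocytes, 2 of 3 of erythrocytes and 3 of 5 of Schwann or sustentacular cells. Median log2 ratios of these 6 lists ran from -0.31 to 0.22, and 0 of their genes passed the adjusted test. Their part in the values below was not tested. In RNA from whole cultures, fewer cells of a type and less RNA per cell cannot be told apart.

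No respiratory chain or ATP synthase clone passed the adjusted test for a change after PACAP. Of the 173 clones, 172 (83 genes) were tested, and the only clone of the assembly factor Ndufaf7, whose spot had an area on 1 array only, was not. limma with Benjamini-Hochberg adjustment over all 35110 clones tested called 0 members, with adjusted p from 0.454 to 0.995, and it called 0.0% of all clones. An unadjusted p under 0.05 was found for 12 of 172 members (6.98%), against 10.4% of all clones tested. Of these 12, 7 were higher after PACAP and 5 lower. Over all clones tested, 3.92% were higher and 6.46% lower at that level. The mean log2(PACAP / control) was above 0 for 86 members and below 0 for 86, with a median of -0.002 and the 25th and 75th percentiles at -0.23 and 0.27. The median SD over arrays was 0.52 for the members and 0.55 for all clones tested. Of the 166 members measured on all 4 arrays, 16 (9.64%) were above 0 on every array and 20 (12.0%) were below 0 on every array. The same shares over all clones with 4 values were 10.1% above and 8.71% below. The median SE of a member's log2 ratio was 0.28, and the number of arrays limits what could be called.

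The members did not take the same side on every array. Their median log2 ratio was 0.05 on repeat 1, 0.13 on repeat 2 and 0.11 on repeat 3, but -0.20 on repeat 4, where the median of all clones tested was -0.001. On repeat 4, 118 of 169 members were below 0 and 51 above. Complex V had 29 of 37 clones below 0 on that array and complex IV had 23 of 29. The ATP synthase gamma subunit gene Atp5c1, picked out after its values were seen, shows this: its brightest clone read 0.96, 1.07, -0.02 and -0.39 on repeats 1 to 4, and its other clones 0.71, 0.97, 0.61 and -0.40, and 0.41, 0.40, 0.71 and -0.79. All 3 of its clones were lower on repeat 4 than on any other array. Repeat 4 also had the brightest control channel, with 100.0% of members above background in Cy3, against 84.7, 65.5 and 54.1% on repeats 1 to 3. The part of this channel difference in the low ratios was not tested. Among the 66 members in the top 25% of all tested clones by brightness, 44 (66.7%) were below 0 on repeat 4, against 51.9% of all clones in that range. The repeat 4 median of the members stayed below 0, from -0.30 to -0.12, under each processing alternative that kept this array. Across the members, log2 ratios of repeats 1 to 3 correlated pairwise with Pearson's r of 0.18 to 0.31 over 169 to 171 clones, and those of repeat 4 with the others at -0.04 to 0.10. Over all clones tested the same values were 0.23 to 0.38 and -0.13 to -0.01. These correlations run across clones that share an array and are a description only.

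**Figure D1:**
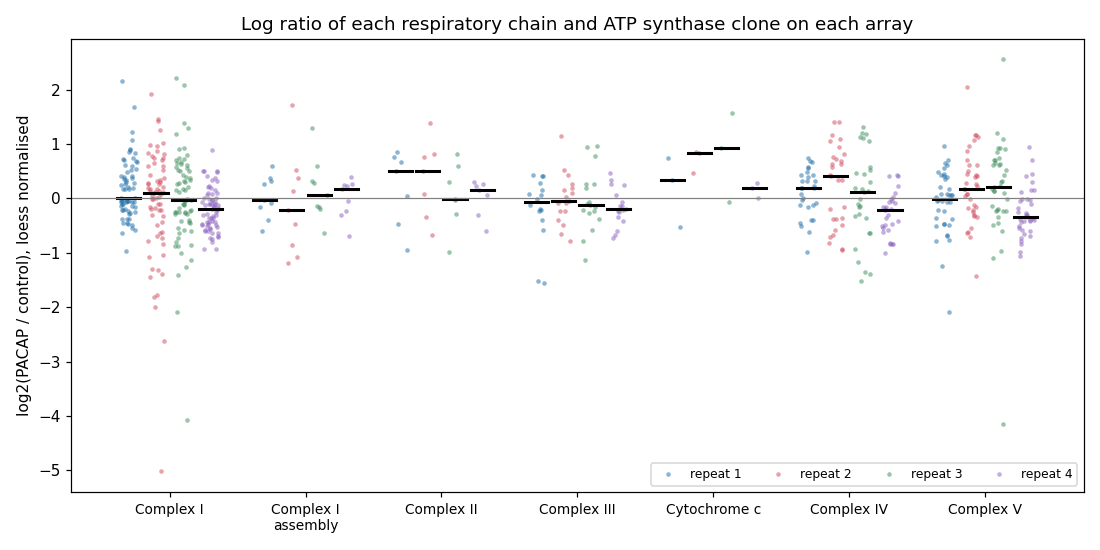
Each point is 1 clone on 1 array, with log2(PACAP / control) on the vertical axis, groups of clones on the horizontal axis and colour for the repeat; black bars are medians. The repeat 4 medians of complexes I, III, IV and V lie below 0, at -0.20, -0.20, -0.21 and -0.34, and the 3 cytochrome c clones have a median above 0 on all arrays.

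Brightness, the mean log2 of the geometric mean of both channels, sets how well a ratio is measured. It depends on the spotted clone and on how well mouse and bovine sequences match, so it gives no order of transcript levels between genes. Its median was 8.49 for the members and 7.86 for all clones tested, and 66 of 172 members (38.4%) lay in the top 25% of all clones. Clones of complex V had the highest median, 9.05, and 26 of its 38 clones (68.4%) were in that range. Complex II had a median of 8.92 with 5 of 7 clones in the top 25%, and complex III also 8.92 with 11 of 17. Cytochrome c clones had a median of 8.53. Complex I clones had a median of 8.26 and complex IV clones of 8.17, and 15 of 69 and 6 of 29 of them were in the top 25%. The complex I assembly factors were lowest, at 7.86. Both channels exceeded background on all 4 arrays for 12 of 17 complex III clones (70.6%), 19 of 38 of complex V, 24 of 69 of complex I (34.8%) and 6 of 29 of complex IV (20.7%), against 31.2% of all clones tested. Brightest in its group was Atp5b for complex V (11.8), on a clone whose library title names a collagen. Next came Ndufc1 for complex I (11.1), Uqcrh for complex III (10.5) and Sdha for complex II (10.1). Cox4i1 for complex IV (9.08) and Cycs clone 1 (8.95) followed. In the top 25% the median SD over arrays was 0.46 for members and 0.40 for all clones, and in the dimmer 50% it was 0.56 and 0.63.

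**Figure D2:**
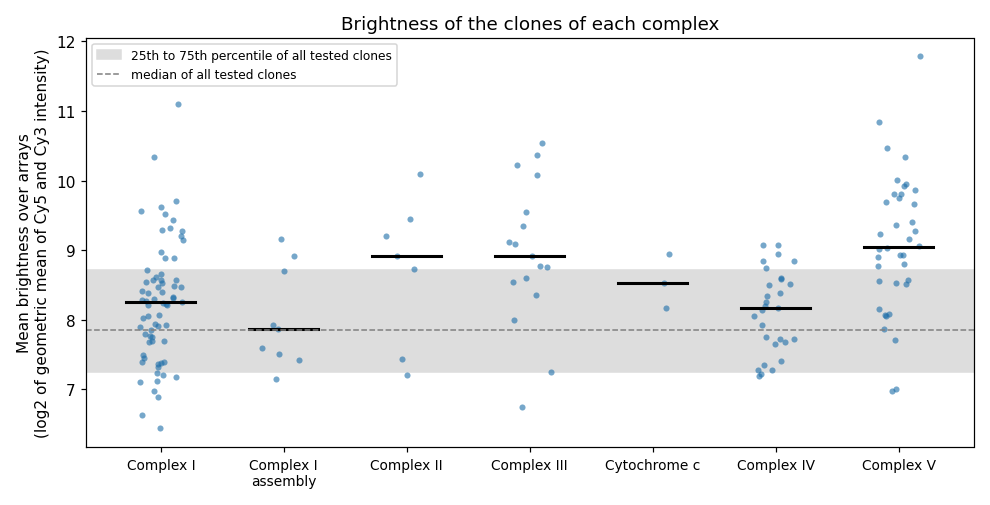
Points are clones, with mean brightness over the arrays in log2 units on the vertical axis and the group of clones on the horizontal axis; black bars are medians, and the grey band runs from the 25th to the 75th percentile of all tested clones around their median of 7.86 (dashed). Complex V clones sit highest, with a median of 9.05, while complex I and IV clones lie mostly within the grey band.

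Complex I takes electrons from NADH through a flavin and a chain of iron-sulfur clusters in its peripheral arm. Its 69 clones had a median log2 ratio of -0.04, with array medians of 0.002, 0.10, -0.02 and -0.20, and 31 clone means were above 0 and 38 below. At an unadjusted limma p under 0.05, 4 clones were higher and 2 lower, together 8.7%, against 10.4% of all clones tested. Of the 69 clones, 0 passed the adjusted test. Ndufv1 encodes the flavin-binding subunit that accepts electrons from NADH. Its brighter clone read -0.54, -2.63, -1.13 and 0.22, a mean of -1.02 ± 1.20 (SD, n = 4) with adjusted p = 0.474. Its other clone read 0.48, 0.17, -0.58 and -0.02, with a mean of 0.01, so the low mean is of 1 clone and rests most on repeat 2. Ndufs1, the largest iron-sulfur subunit, read 0.00, 1.25, 0.12 and -0.47 on its only clone, with values on both sides of 0.

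The accessory subunits surround the catalytic core. Ndufa2, one of them, had the smallest p of complex I when the brightest clone stands for each gene, and its only clone read 0.85, 0.75, 0.91 and 0.50, a mean of 0.75 ± 0.18 (SD, n = 4), with adjusted p = 0.454. All 4 arrays were above 0, but the control channel of this clone exceeded background on only 1 array. The only clone of Ndufs5, another accessory subunit, read 0.61, 0.29, 2.22 and 0.34, a mean of 0.87 ± 0.91 (SD, n = 4) with adjusted p = 0.470. The high mean came from repeat 3, where the control intensity was 22.7 against 109.5 in the PACAP channel. Ndufc1, the brightest clone of complex I, read 0.19, -0.20, -1.002 and 0.23, and its second clone 0.18, 0.43, -0.27 and -0.36. Neither clone kept 1 side of 0.

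Ndufb9, an accessory subunit of the membrane arm, was picked out after its values were seen. Its 3 clones read 0.25, 0.74, 0.40 and 0.38, then 0.74, 0.02, 0.28 and 0.89, and 0.68, 0.82, 1.19 and 0.50, with means of 0.44 ± 0.21, 0.48 ± 0.40 and 0.80 ± 0.29 (SD, n = 4 each). All 12 ratios were above 0, which held for no other of the 59 member genes with at least 2 tested clones. Adjusted p was 0.520, 0.519 and 0.454, so none passed the test. Over all genes of the library with 3 tested clones, 17.3% had all 3 means above 0. The share of library genes with every single ratio above 0 was not computed, so the count of 12 ratios has no background beside it. Ndufb9 stayed above 0 in mean on all 3 clones under each alternative, with 11 of 12 ratios above 0 after print-tip loess and 9 of 12 in the deposited log2 ratios.

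Other complex I genes with 4 clones varied more between clones than Ndufb9. Ndufb7 had clone means of -0.28, -0.59, -0.40 and 0.83, and the highest clone read 0.60, 1.46, 2.08 and -0.81. That clone was the dimmest of the 4, with its control channel above background on 2 arrays. With both channels required it dropped out, and the 3 remaining means ran from -0.59 to -0.28, with 11 ratios below 0 and 1 above. Ndufb5 had clone means of 0.20, 0.42, -0.13 and 0.13. The last of these clones ranged from -1.31 to 2.15, and its library title names another gene. The range of clone means was thus 1.42 log2 units for Ndufb7, and it was wider for Ndufa11 (1.47) and Ndufv2 (2.30). The lowest complex I mean was that of Ndufv2 clone 2, -2.03 ± 2.68 (SD, n = 3), which came from a single value of -5.02 on repeat 2. Its spot covered only 16 to 22 pixels on the arrays where it was found. The other Ndufv2 clone had a mean of 0.27. Ndufv2 encodes an iron-sulfur subunit beside Ndufv1 and was picked out for that range. The 9 tested clones of Ndufaf assembly factors, which help build complex I without staying in it, had a median of 0.11 and means from -0.60 to 0.57, and 0 had an unadjusted p under 0.05.

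Complex II is the succinate dehydrogenase shared with the tricarboxylic acid cycle. Its 7 clones had a median log2 ratio of 0.32, and array medians of 0.50, 0.50, -0.01 and 0.16. Sdha, the flavoprotein subunit that oxidises succinate, had both clone means below 0. Its clones read -0.47, -0.68, -0.98 and 0.23, and -0.94, 0.50, -0.02 and -0.61, with means of -0.47 ± 0.52 and -0.27 ± 0.64 (SD, n = 4 each). Sdhb, the iron-sulfur subunit, differed between clones, with 0.05, 0.08, -0.01 and -0.30 on the brighter one and 0.85, 0.81, 0.30 and 0.26 on the other. The second clone was above 0 on every array, at a mean of 0.55 ± 0.32 (SD, n = 4) with adjusted p = 0.479. Sdhd, a membrane anchor, had 10 of 12 ratios above 0 on 3 clones, whose means were 0.32, 0.48 and 0.55 and whose adjusted p ran from 0.479 to 0.665. The dimmest Sdhd clone read 0.67, 0.76, 0.60 and 0.16, with its control channel above background on 1 array. For the clone with a mean of 0.48, that channel was above background on 2 arrays. With both channels required, only the Sdhd clone at 0.32 remained, with 3 ratios above 0 and 1 below. The catalytic subunit thus read below 0 and the membrane anchor above 0, the latter mostly on clones with a dim control channel. None passed the test, and median centring turned the brighter Sdha clone to 0.15. When only clones bright in both channels were kept, or only the brightest clone of each gene, the complex II median was -0.05.

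Complex III passes electrons from ubiquinol to cytochrome c. Its 17 clones had a median log2 ratio of -0.08 and array medians of -0.06, -0.04, -0.11 and -0.20, and 11 clone means were below 0 and 6 above. Of the 16 clones with 4 values, 4 were below 0 on every array and 1 above. Uqcrc1, a core subunit, had all 4 clone means below 0 (-0.04, -0.18, -0.08 and -0.55), yet 5 of its 16 ratios were above 0. The lowest of these clones read -1.52, 0.26, -0.59 and -0.34. Over all genes of the library with 4 tested clones, 7.11% had every mean below 0. Of the 4 Uqcrc1 means, 1 was above 0 after print-tip loess, in the deposited log2 ratios, and without repeat 2 or repeat 3. After median centring, 3 were above 0. Cyc1 encodes cytochrome c1, which hands electrons to cytochrome c. Its clones read -0.58, -0.23, -0.06 and -0.59, then -0.39, 0.02, -0.22 and 0.27, and -0.004, -0.65, -1.14 and -0.23. Their means were -0.36 ± 0.26, -0.08 ± 0.29 and -0.51 ± 0.50 (SD, n = 4 each), with 10 of 12 ratios below 0 and adjusted p of 0.520 to 0.914. Centring each array on its median without loess turned the brightest Cyc1 clone to 0.11 and the brightest Uqcrc1 clone to 0.63. Of the 3 Cyc1 means, 2 were above 0 after that centring, and 2 were above 0 in the deposited log2 ratios.

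The smallest p of complex III was that of Uqcr11, a small subunit, whose brighter clone read -1.55, -0.50, -0.78 and -0.22. Its mean was -0.76 ± 0.57 (SD, n = 4), with adjusted p = 0.454. The second Uqcr11 clone read 0.43, -0.27 and -0.68 on repeats 2 to 4. Uqcrb, a ubiquinone-binding subunit, had clones at 0.15, 0.18, 0.96 and 0.47 and at 0.41, 1.14, 0.26 and -0.14, with means of 0.44 and 0.42 and 7 of 8 ratios above 0. Uqcrh, the hinge protein and the brightest of the complex, read 0.29, 0.51, -0.10 and 0.34. Uqcrfs1, the Rieske iron-sulfur protein, read 0.05, -0.24, 0.94 and -0.42, without a side. Members of complex III thus read in both directions after loess, with Uqcr11 and Cyc1 below 0 and Uqcrb above, none past the test.

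Cytochrome c, the soluble carrier between complexes III and IV, is also known for its part in apoptosis when released from mitochondria. The Cycs clones had a median mean of 0.60, the highest of the groups. Clone 1 read 0.33, 0.85, 0.93 and 0.27, a mean of 0.60 ± 0.34 (SD, n = 4), with adjusted p = 0.474. Clone 3 read 0.74, 0.84, 1.58 and 0.19, a mean of 0.84 ± 0.57 (SD, n = 4), with adjusted p = 0.454. Both clones were above 0 on every array, whereas clone 2 read -0.52, 0.47, -0.06 and 0.01 with a mean of -0.03 ± 0.41 (SD, n = 4). Clone 3 exceeded background in the control channel on 1 array only, and clones 1 and 2 on all 4. In intensity, clone 1 gave 823.1, 1094.5, 393.1 and 573.5 in the PACAP channel and 405.5, 271.6, 147.5 and 1095.3 in the control channel of repeats 1 to 4, before loess. The control channel of this clone was the brighter one on repeat 4 and the dimmer one on the others. Across the library, the median control intensity on repeat 4 was 548.0, against 248.2 in the PACAP channel.

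Complex IV, cytochrome c oxidase, has several subunits with tissue-specific isoforms. Its 29 clones had a median log2 ratio of 0.12 and array medians of 0.19, 0.40, 0.12 and -0.21, with 18 clone means above 0 and 11 below. Cox4i1, the common isoform of its regulatory subunit, had 3 clones at 0.19, 0.34, 0.52 and -0.19, at 0.31, 1.10, 0.19 and -0.05, and at 0.23, -0.49, 1.18 and -0.06. Their means were 0.22, 0.39 and 0.21, and all 3 were below 0 on repeat 4. Cox6b2, known as the testis isoform of subunit VIb, had the smallest p of the complex. Its only clone read -0.39, -0.96, -1.35 and -0.84, a mean of -0.88 ± 0.39 (SD, n = 4), with adjusted p = 0.454. The PACAP channel of this clone exceeded background on 3 arrays, with intensities of 259.3, 107.2, 50.2 and 108.5. The widespread isoform Cox6b1 read 0.32, 1.40, -0.37 and -0.54, and 0.09, 0.95, 0.17 and -0.37, with means of 0.20 and 0.21. On each array Cox6b2 was lower than both Cox6b1 clones, which were themselves below 0 on repeat 4. No test of the difference was made.

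For the other isoform pairs, Cox6a1 had clone means of 0.43, 0.12 and -0.35, and its muscle isoform Cox6a2 read -0.15, 0.82, 0.44 and -0.31 with a mean of 0.20. Cox7a2 had means of 0.03 and -0.21, and Cox7a2l, a related protein of respiratory supercomplexes, of -0.11, 0.54 and 0.18. The title of its second clone names another gene. Cox8a, a small subunit with 4 clones, had means of 0.28, 0.05, 0.40 and -0.12, and its brightest clone read -0.12, 1.17, 0.57 and -0.52. Cox8a clones 1 to 3 were each highest on repeat 2 and lowest on repeat 4. Ndufa4l2, a paralog of Ndufa4 known to be induced in low oxygen, read -0.12, -0.58, -1.17 and 0.23 on its brighter clone and -0.08, -0.38, 1.12 and -0.49 on the other. Apart from Cox6b2, no complex IV clone had an unadjusted p under 0.05.

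Complex V makes ATP in a catalytic head of alpha and beta subunits, driven by a ring of c subunits in the membrane and held by a peripheral stalk. Its 38 clones had a median log2 ratio of 0.03 and array medians of -0.01, 0.18, 0.21 and -0.34, with 20 clone means above 0 and 18 below. Atp5b, the beta subunit that carries the catalytic sites, had 5 clones, the most of any member. Their means were -0.20 ± 0.46, -0.31 ± 0.27, -0.43 ± 0.15, -0.48 ± 0.31 and -0.30 ± 0.55 (SD, n = 4 each). The library title of the brightest clone names a collagen, and without it the means ran from -0.48 to -0.30. The third clone read -0.48, -0.24, -0.60 and -0.41, and the fourth -0.78, -0.62, -0.46 and -0.05. Of the 20 ratios of Atp5b, 18 were below 0, and adjusted p ran from 0.513 to 0.780. Over all genes with 5 tested clones, 6.11% had every mean below 0. This side depended on the processing: after centring each array on its median without loess, 4 of the 5 means were above 0, from -0.42 to 0.75. In the deposited log2 ratios, also used without loess, 4 of the 5 means and 14 of the 20 ratios were below 0.

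Atp5a1, the alpha subunit, read -0.38, -0.54, 0.63 and -1.06 on its brightest clone, and its clone means were -0.34, -0.24 and 0.03. The delta subunit gene Atp5d, picked out after its values were seen, had means of -0.21 ± 0.20, -0.23 ± 0.20 and -0.32 ± 0.21 (SD, n = 4 each), with 11 of 12 ratios below 0. After median centring 2 of these 3 means were above 0, as were 2 of 3 in the deposited log2 ratios. The c subunit genes encode nearly the same mature protein and their clones may share signal. Atp5g1 read 0.06, -0.34, -0.96 and -0.41 on its brightest clone, and all 3 of its means were below 0, from -0.41 to -0.10. Atp5g3 had the lowest mean of all members, -2.28 ± 1.78 (SD, n = 3), on a clone that read -2.08, -4.16 and -0.60 on repeats 1, 3 and 4. Its adjusted p was 0.454. The PACAP channel of that clone was at 77.5 and 47.7 on repeats 1 and 3 and at 1106.9 on repeat 4. Its spot covered 57, 21 and 11 pixels on these arrays, against a median of 114 for the members, and the clone drops out when spots under 60 pixels are left out. The brighter Atp5g3 clone, whose title names another gene, read 0.35, -1.42, 0.92 and -0.83.

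In the peripheral stalk, Atp5pb (subunit b) read 0.07, 0.71, 0.85 and 0.70 on its only clone, a mean of 0.58 ± 0.35 (SD, n = 4) with adjusted p = 0.479. Clones named for its mouse pseudogene, Atp5pb-ps, may bind the same bovine transcript, which was not tested. They read 0.61, 1.13, 0.74 and -0.03, and -0.36, 0.39, 0.62 and -0.27, with means of 0.61 and 0.09. Of the 12 ratios under both names, 9 were above 0. Clones of the catalytic head thus read mostly below 0 (Atp5a1, Atp5b), and those named for subunit b or its pseudogene mostly above. None of these clones passed the adjusted test, and median centring turned the brightest Atp5a1 clone to 0.27.

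Clones of 1 gene often fell on different sides of 0. Of the 59 member genes with at least 2 tested clones, 14 had all means above 0, 15 all below and 30 on both sides, and the median range of means within a gene was 0.37 log2 units. That range is between means over arrays, and the median SE of such a mean was 0.28. The median SD of a clone over arrays was 0.52. Of the 35 member genes with 2 clones, 10 had both means above 0 and 9 both below, against 30.9% and 23.0% of all library genes with 2 tested clones. Of the 19 with 3 clones, 4 had all means above 0 and 4 all below, against 17.3% and 13.2%. The median range within a gene was 0.37 for members and 0.37 for the library with 2 clones, and 0.35 against 0.61 with 3.

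**Figure D3:**
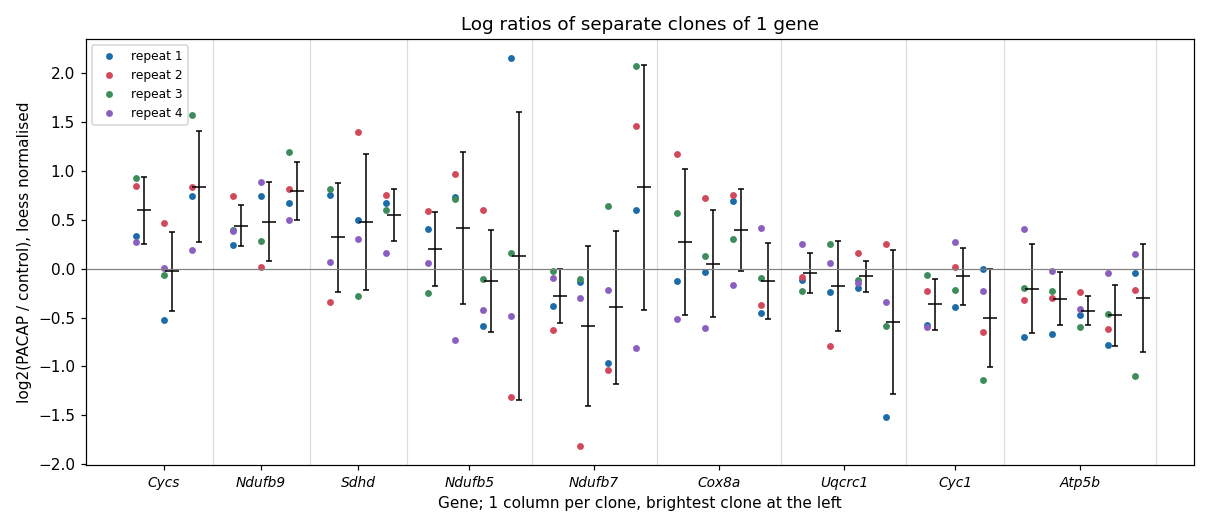
Coloured points are the log2(PACAP / control) of 1 clone on each array, with the clones of a gene side by side from brightest to dimmest, and black bars are the mean ± SD over 4 arrays. All points of the 3 Ndufb9 clones lie above 0 and 18 of 20 points of the 5 Atp5b clones lie below, whereas clones of Ndufb5, Ndufb7, Cox8a and Cycs fall on both sides.

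Genes that work beside the chain were read from 4 further lists. Of 23 measured assembly factors outside the member list, 1 was higher (Tmem126b, of complex I assembly, 0.94 ± 1.10) and 1 lower (Lyrm7, of complex III assembly, -0.80 ± 0.74; SD, n = 4 each) at an unadjusted limma p under 0.05, and the median log2 ratio was 0.02. Over all clones tested, 10.4% had such a p. The Tmem126b clone read 2.53 on repeat 3, where its control intensity was 10.5. Its control channel exceeded background on only 1 array. Of 15 genes of the tricarboxylic acid cycle and pyruvate dehydrogenase, 10 were above 0 and 5 below, with a median of 0.20 and 0 at an unadjusted limma p under 0.05. In that list, Idh3a, a subunit of isocitrate dehydrogenase, read 0.56, 0.65, 0.33 and 0.51, and Pdha1, of pyruvate dehydrogenase, read 0.24, 0.79, 0.80 and 0.33. Both were above 0 on all arrays at an adjusted p of 0.480, as were Sucla2 and Idh3b at 0.519 and 0.690. The library title of the Idh3b clone names another gene. Below 0 on all arrays were Mdh2 (mean -0.34), Cs (-0.22), Ogdh (-0.58) and Idh3g (-0.36), at adjusted p from 0.501 to 0.721. Over all clones with 4 values, 10.1% were above 0 on every array and 8.71% below. The 8 carriers and channels (such as the adenine nucleotide translocators) had a median of 0.01, and the 9 regulators of mitochondrial biogenesis (such as Tfam and Nrf1) of 0.10. limma with adjustment called 0 genes of these 4 lists.

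Set side by side, the groups' array medians overlapped in most pairs. They spanned -0.20 to 0.10 for complex I, -0.21 to 0.18 for its assembly factors, -0.21 to 0.40 for complex IV and -0.34 to 0.21 for complex V. Complex III spanned -0.20 to -0.04, below complex II (-0.01 to 0.50) and cytochrome c (0.19 to 0.93) on these values. Complex I and the assembly factors also lay wholly below cytochrome c. These gaps did not hold throughout: after print-tip loess, complex II reached down to -0.27 and complex III up to 0.14. With both channels above background, cytochrome c had a median of -0.09 on repeat 1, and complex III spanned -0.15 to -0.08. No test of the differences between groups was made, since clones are not replicates and the groups were compared with these data known. Complexes II and cytochrome c rest on 7 and 3 clones. Under other processing, cytochrome c stayed above 0 (0.28 to 1.86) and complex III below 0 except after median centring (0.12), while the medians of complexes I, II, IV and V each took both signs.

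**Figure D4:**
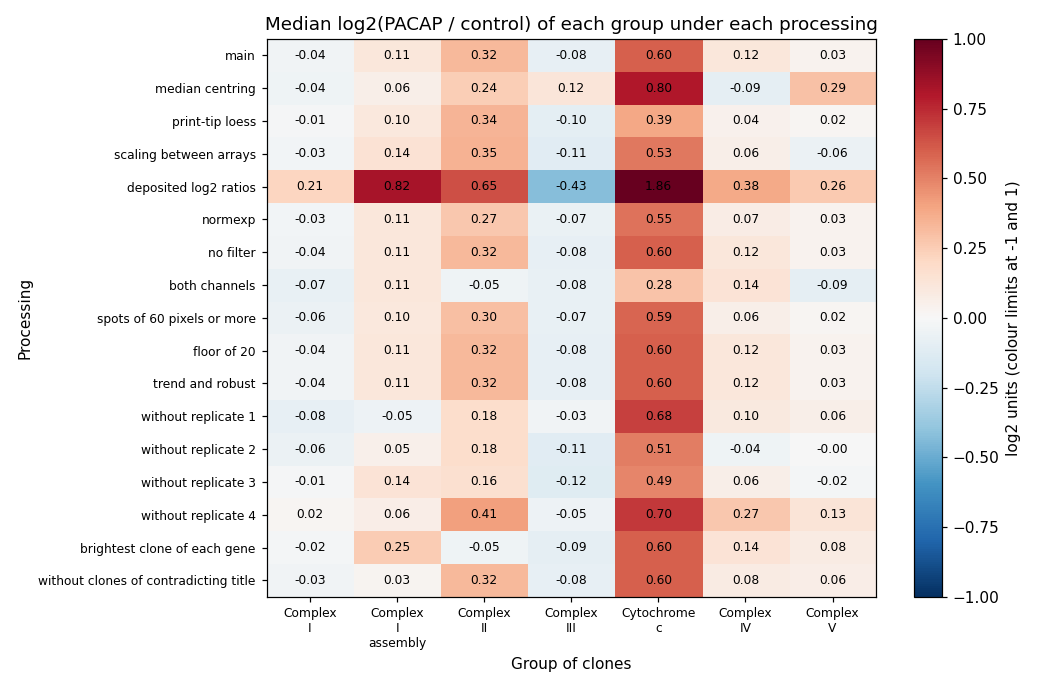
Each cell gives the median log2(PACAP / control) of a group of clones (columns) under 1 processing (rows), coloured from blue below 0 to red above 0, with colour limits at -1 and 1. Cytochrome c is above 0 in every row, and the deposited log2 ratios differ most from the other rows, with complex III at -0.43 and cytochrome c at 1.86.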

How the data were processed

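Each array gave a Cy5 and a Cy3 intensity per spot, and the deposited mean intensities already had local background taken off, as checked from the values. The authors' deposited ratio per spot, a fold scaled by 1 factor per array, was used only to check the series table, and the deposited spot area only to leave out empty spots. The authors' deposited series table holds log2 ratios with medians of 4.67, 5.51, 4.25 and -0.38 on repeats 1 to 4. Its values were recovered by subtracting background a second time; its scale and direction are thus known from the values, and it is not centred. No source used here gives the image software. Symbols came from the platform annotation, joined by plate position for 35825 of 35873 entries, within 0.1 log2.

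Intensities were floored at 1 and normalised by global loess (span 0.3, 4 iterations) in limma 3.58.1 (R 4.3.3); Python 3.11.15 was used for summaries. Tested clones had 1 or both channels more than 2 background SD up, on 3 or more arrays. Spots of 1 clone were averaged, and lmFit and eBayes tested the mean against 0 (2-sided, Benjamini-Hochberg over all clones). The scripts were first tested on simulated data.

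Members and lists were chosen with earlier results of these data known. The rule names, per complex, the 3 genes of smallest p, the brightest gene and genes with at least 4 clones, besides catalytic subunits and isoform families (32 genes); the brightest clone stands for a gene. Alternatives were other normalisations, filters and floors, the deposited log2 values, and each repeat left out. Leaving out the 9 member clones whose title names another gene was added after seeing the data.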

Additional observations from a re-analysis of the deposited data

Results flagged for a closer look

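Of 42 sets of 4 array values examined (medians of the groups, shares of members above background in each channel, and the brightest clone of each named gene), 1 had an array far from the others; chance alone sets about 1 in 20 apart. This was the Ndufs5 clone, at 2.22 on repeat 3, where the remaining arrays gave 0.29 to 0.61.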

How the results depend on the processing

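In each alternative 0 members passed the adjusted test, although 371 clones of the library did in the deposited log2 ratios and 3 with a trended, robust variance. Members with an unadjusted p under 0.05 numbered 28 after median centring (16.3%, against 17.4% of all clones), 22 in the deposited log2 ratios (12.8%, against 13.1%), 19 after print-tip loess (close to the share over all clones) and 18 with the trended, robust variance (10.5%, against 12.1%). With 1 repeat left out they numbered 7 to 18: 7 without repeat 1 (4.07%, against 8.04%) or 3 (4.07%, against 5.28%) and 18 without repeat 4 (10.5%, against 14.7%). Members on 1 side of 0 on every array, 36 with 4 arrays, numbered 47 to 68 on 3 arrays, most without repeat 4; fewer arrays alone raise this count. Median centring gave medians of 0.12 for complex III and 0.29 for complex V. The deposited log2 ratios, centred per array, gave 0.33 for all members, 0.21 for complex I, 0.82 for its assembly factors, 0.65 for complex II, -0.43 for complex III, 1.86 for cytochrome c and 0.38 for complex IV, beside -0.28 for all clones. Complex II was at -0.045 with both channels above background and also with only the brightest clone of each gene. The cause was not tested for these shifts. The other 156 counts and medians, among them every one with normexp, no filter, a floor of 20, scaling between arrays or clones with a contradicting title left out (added after seeing the data), moved by less than the spread over arrays or by under 1.5 times. Of the 32 named genes, 16 kept their sign in each alternative run and 16 did not, in 30 of 443 values. No paired analysis was possible because the arrays form 1 group, in which each ratio already pairs PACAP and control of 1 repeat. Dim control channels on repeats 2 and 3 and the lack of a dye swap limit these ratios.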
